A study of Mus musculus with 2 samples.

Results

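The transcripts described here belong to 27 genes of DNA repair, defined by their symbols, that were paired with at least 1 peak of an ELAVL2 RNA immunoprecipitation (RIP-seq) from newborn mouse ovary. The symbols are those of the Rad, Fanc, Brca, Xrcc, Ercc and Msh families together with Brip1, Atm, Atr, Blm, Wrn, Nbn, Mre11a and Palb2, leaving out Rad21l and pseudogenes. They are 27 of the 11969 genes in the authors' deposited table of peaks and genes. A peak overlapped the body of 20 of them (86 gene-peak pairs, 61 of which overlapped no other gene), and the remaining 7 were listed only as the gene nearest to a peak outside them. Over the whole deposited table, a peak overlapped 6158 of the 11969 genes, and 83.4% of overlapping pairs involved no other gene. Brip1os and Fancd2os entered by symbol, although they are transcribed opposite to a repair gene and are not known as repair factors themselves. Ercc6l2 and Rad54l2 are related by sequence to the repair proteins whose names they carry.

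ELAVL2 belongs to the Hu family of RNA-binding proteins. Per the labels, ELAVL2 was pulled down with 5 µg of antibody on protein G beads from the cleared lysate of 100 ovaries of postnatal day 0, and RNA from 5% of the same lysate served as input. There was 1 RIP sample and 1 input sample, no genotype or treatment separates them, and no pulldown with a control antibody was analysed here, so RNA bound by ELAVL2 and RNA held back in another way cannot be told apart. The ovary is a mixture of cells, and more RNA per cell cannot be told apart from more cells of one type. Of the markers fixed for this tissue, peaks overlapped 5 of 8 oocyte genes (Ddx4, Dazl, Kit, Lhx8 and Sycp3), 1 of 8 granulosa genes (Fshr) and none of 4 stromal, 3 blood and 3 endothelial genes. No peak overlapped the other oocyte genes, Figla, Nobox and Sohlh1. Over all protein-coding genes the share was 23.4%, and no test was made on lists this short. A gene without a peak may be expressed without enrichment or be absent, which a peak list does not separate.

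Each peak has a pileup, the number of RIP tags that cover its summit, and a fold enrichment over the input level at that place. Both are the authors' own values, and so is the -log10 q of the peak. The RIP had 13787676 tags and the input 19479946 after tags at the same position were reduced to 1. The input level was calculated from pileup and fold in tags scaled to the RIP library, in which 1 input tag counts 0.708. Where an interval follows a fold, it is the exact 95% Poisson interval of the pileup with the input level taken as known, and it covers counting error only. With 1 sample per arm there is no replicate check and no test between conditions.

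DNA repair genes guard genome integrity by several routes. The Fanconi anaemia proteins unhook crosslinked DNA strands, homologous recombination copies an intact template across a break, end joining ligates broken ends directly, and excision and mismatch repair remove damaged or mispaired bases. Oocytes of the newborn ovary have just passed through meiotic recombination, which makes and repairs breaks on purpose, and mice lacking Fanconi genes are known for a shortage of germ cells. RNA-binding proteins of the ELAVL family favour U-rich and AU-rich stretches, commonly in 3' untranslated regions. The sequences under the peaks and the exon structure were not used here, so peaks are placed along whole gene bodies with introns.

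Among the Fanconi genes, peaks overlapped Fanca, Fancc, Fancd2 and Fanci, at low input and for the most part away from the 3' end. Fancc (ENSMUSG00000021461, chromosome 13, 63304709 to 63497278, minus strand, mm10) encodes a subunit of the core complex that ubiquitinates FANCD2 and FANCI. Its 4 peaks, from 3' to 5', had pileups of 7, 9, 12 and 17 RIP tags against input levels of 0.369, 0.708, 2.12 and 1.52, and folds of 5.85, 5.86, 4.16 and 7.14. The best of them, at 63458076 to 63458186, was enriched 7.14-fold (4.32 to 11.2) with 8.78 as its -log10 q, and lay at 20.3% of the body from the 5' end. A neighbouring peak 11152 bp upstream of Fancc, with a fold of 1.89, lay inside Ptch1 instead, 0.148 kb from the 3' end of that gene.

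Fancd2 (ENSMUSG00000034023, chromosome 6, 113531682 to 113597017, plus strand), the protein ubiquitinated at crosslinks, had peaks at both ends of its body. The 5' peak had a pileup of 11 against an input level of 0.708, a fold of 7.03 (3.80 to 12.1), and lay at 8.20% of the body. The 3' peak lay at 99.2% of the body and had a pileup of 37 against an input level of 12.7, with a fold of 2.77 (1.97 to 3.78). So the peak with more RIP tags had the smaller fold, since the input was also higher there, and the intervals of the pair barely clear each other. This 3' peak is the only one paired with Fancd2os, and it lay 216 bp outside that gene.

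Fanci, the partner of FANCD2, had peaks with pileups of 8 and 7 against input levels of 0.369 and 0.672, and folds of 6.58 (3.25 to 12.2) and 4.78 (2.28 to 9.22). Fanca, a further core subunit, had 1 peak with a pileup of 7 against 0.369 and a fold of 5.85 (2.79 to 11.3). The level of 0.369 is the genome-wide background of the peak caller, the lowest it uses, so these folds rest on a handful of RIP tags over a region with next to no input. The Fanca peak also fell within Gm20388, an annotated gene of 4430 kb on the other strand.

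Among the homologous recombination genes, peaks overlapped Rad51b, Palb2, Rad51c, Xrcc2, Rad54l and Rad54b, at places and input levels that differed between the genes. Rad51b (ENSMUSG00000059060, chromosome 12, plus strand), which acts in homologous recombination, held 8 peaks that all fell within 2.73 kb, at 79364597 to 79367331. From 5' to 3' their pileups were 8, 12, 10, 11, 11, 8, 14 and 18 RIP tags, against input levels of 0.779, 2.12, 0.743, 0.708, 0.92, 1.42, 1.49 and 3.54. Their folds were 5.06, 4.16, 6.31, 7.03, 6.25, 3.73, 6.03 and 4.19. All 8 overlapped no other gene and were paired with none. The cluster lies at about 32% of the 211 kb body in the authors' deposited table (79297351 to 79508656), and at 12.2 to 12.7% of the 551 kb reference body. Nothing else in Rad51b was called.

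Palb2 (ENSMUSG00000044702, chromosome 7, 122107262 to 122132985, minus strand), whose protein bridges BRCA1 and BRCA2, showed the reverse picture, a string of well covered peaks over the 3' part of a short gene. From 5' to 3' its 7 peaks had pileups of 32, 26, 36, 21, 25, 34 and 45 RIP tags. The input levels in the same order were 5.66, 7.79, 7.08, 4.25, 7.79, 12.0 and 19.8. The folds ran 4.95, 3.07, 4.58, 4.19, 2.96, 2.69 and 2.21, so the 3 peaks nearest the 3' end had the smallest folds and the last of them the largest pileup and input. The peak at 122114314 to 122114377 had the gene's largest -log10 q, 10.1, with a fold interval of 3.25 to 6.29. All 7 overlapped Palb2 alone and had pileups above 20, and the largest fold has an interval of 3.44 to 6.93.

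Rad51c and Xrcc2, further recombination genes, had peaks whose largest folds were below that of Palb2. Rad51c had 2, with pileups of 29 and 23 against an input level of 9.20 at both, and folds of 2.94 (2.00 to 4.18) and 2.35 (1.53 to 3.48). Xrcc2 had 1, 204 bp from its 3' end, with a pileup of 29 against 12.7 and a fold of 2.18 (1.49 to 3.10). The intervals of these 3 peaks overlap, so counting does not order them.

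For Rad54l and Rad54b every overlapping peak was shared with another gene, and the called peaks carry no strand. Rad54l, an ATPase of homologous recombination, had pileups of 22 and 59 against 4.44 and 30.4 and folds of 4.23 and 1.91, both within Lrrc41 as well. The larger pileup was 0.356 kb from the Lrrc41 3' end and the smaller 168 bp from that of Rad54l. Rad54b, its relative, had pileups of 20 and 9 against 2.83 and 0.708 with folds of 5.48 (3.45 to 8.32) and 5.86 (3.0 to 10.6), and both lay inside Fsbp, a short gene of 7.93 kb on the same strand within Rad54b.

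**Figure D1:**
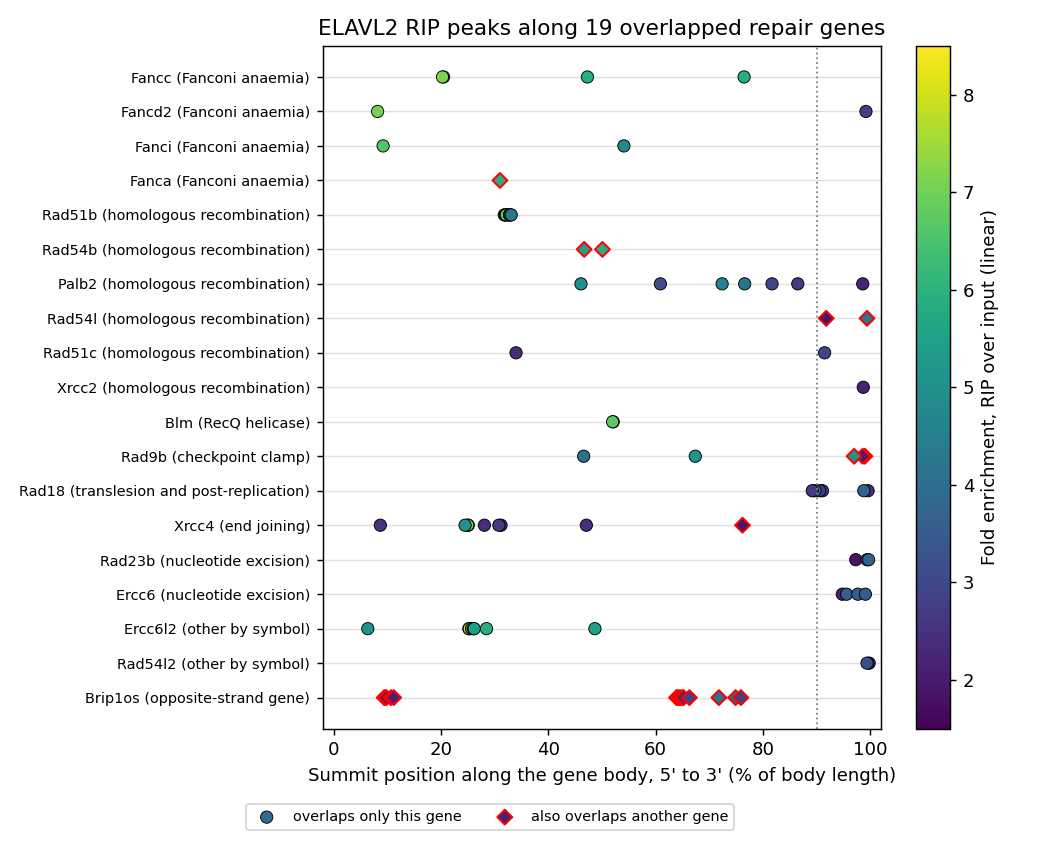
Position of each peak summit along the body of 19 overlapped genes, in percent of body length from the 5' to the 3' end, with the genes grouped by role and the colour giving the fold enrichment on a linear scale. Circles overlap only the named gene, red-rimmed diamonds also overlap another gene, and the dotted line marks the last 10% of the body. Rad51b and Ercc6l2 hold tight clusters inside the body, and all 15 peaks of Brip1os are shared. Ercc6, Rad23b, Rad54l2, Xrcc2 and Rad54l hold peaks only beyond the line.

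Blm, a RecQ helicase that dissolves recombination intermediates, had 2 peaks within 0.186 kb near the middle of its body (chromosome 7, 80493216 to 80493401). Their pileups were 14 and 7 against input levels of 1.24 and 1.03, with folds of 6.70 (3.87 to 10.9) and 3.95 (1.88 to 7.61). A further peak 15484 bp upstream, outside any gene, had a pileup of 17 and a fold of 5.76.

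Rad9b (ENSMUSG00000038569, chromosome 5, 122323223 to 122354233, minus strand), a relative of the RAD9 subunit of the checkpoint clamp, carried the largest -log10 q of the set, 15.3. That peak, at 122324047 to 122324177, had a pileup of 50 against 9.20 and a fold of 5.00 (3.74 to 6.56). It is 1 of 3 peaks over the 3' end of Rad9b, with pileups of 50, 62 and 50, that also cover the 3' end of Pptc7 on the opposite strand, within 0.124 to 0.758 kb of it. The 2 peaks that overlapped Rad9b alone lay at 67.4% and 46.6% of its body, with pileups of 15 and 9 against 2.12 and 1.42 and folds of 5.12 (3.01 to 8.24) and 4.14 (2.12 to 7.49). Without the shared peaks, the largest -log10 q of Rad9b was 5.28.

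Rad18 encodes the ubiquitin ligase that marks the sliding clamp PCNA at stalled forks. Its 6 peaks lay at 89.2 to 99.6% of its body (chromosome 6, 112619850 to 112696686, minus strand). Their pileups ran from 15 to 41 against input levels of 2.83 to 13.4, and their folds from 2.43 to 4.44. None was shared with another gene.

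Xrcc4 (ENSMUSG00000021615, chromosome 13, minus strand), the partner of DNA ligase IV in end joining, held 9 peaks of unlike kinds. At 90010376 to 90012398, inside the body, 3 peaks had pileups of 11, 11 and 6 against 0.708, 0.708 and 0.389, and folds of 7.03, 7.03 and 5.04. The other 6, from 3' to 5', had pileups of 36, 26, 27, 28, 32 and 28 against input levels of 18.4, 9.91, 11.3, 9.91, 12.7 and 10.6, and folds of 1.91, 2.48, 2.27, 2.66, 2.40 and 2.50. The folds of the 3 are thus all above those of the 6, at smaller pileups. The first of the 6 lay 346 bp from the 3' end of the 241 kb reference body. In the authors' deposited table, where Xrcc4 spans 316 kb, this peak stands at 76.2% and is shared with Gm4117.

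The fold of 7.03 recurs at Xrcc4, Rad51b and Fancd2 because each of those peaks has 11 RIP tags over 1 input tag. At such depths a fold can take only a few values, so ties of this kind recur.

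The nucleotide excision genes Ercc6 and Rad23b had peaks only at the 3' end. Ercc6 (chromosome 14, 32513521 to 32580989, plus strand), the CSB protein of transcription-coupled repair, had pileups of 29, 31, 25 and 27 against input levels of 12.7, 8.14, 6.37 and 7.08, from 3507 to 590 bp before its 3' end. The folds were 2.18, 3.50, 3.53 and 3.47, so 3 of 4 nearly coincide and the interval of the first, 1.49 to 3.10, overlaps theirs. Rad23b, which holds the damage sensor XPC, had pileups of 54, 29 and 22 against 28.3, 7.79 and 5.27, all within 1124 bp of its 3' end. Its folds were 1.88 (1.42 to 2.44), 3.41 (2.32 to 4.85) and 3.67 (2.36 to 5.47), smallest where the input was highest.

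Ercc6l2 (ENSMUSG00000021470, chromosome 13, 63815240 to 63900302, plus strand), an SNF2-family protein linked in humans to bone marrow failure, had the largest fold of any peak inside the 20 overlapped genes. The peak at 63836748 to 63836820 had a pileup of 19 against an input level of 1.42, was enriched 8.28-fold (5.15 to 12.7) and reached 11.1 in -log10 q. It belongs to 6 peaks between 63836471 and 63839511, a stretch of 3.04 kb. From 5' to 3' these had pileups of 15, 19, 15, 10, 16 and 9 against input levels of 1.42, 1.42, 2.83, 1.42, 2.12 and 0.708, and folds of 6.62, 8.28, 4.18, 4.55, 5.44 and 5.86. The pair outside the cluster had pileups of 6 and 8 against 0.369 and 0.637 and folds of 5.11 and 5.50. All 8 peaks of Ercc6l2 overlapped it alone, none lay beyond 48.7% of the body, and none was paired with another gene. Rad54l2, which encodes the androgen receptor interacting protein ARIP4, had 2 peaks within 569 bp of its 3' end, with pileups of 22 and 40 against 6.33 and 21.2 and folds of 3.14 (2.02 to 4.68) and 1.84 (1.33 to 2.49).

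Brip1os had more peaks than any other member, 15, and all of them also overlapped another gene. Because the called peaks carry no strand, they cannot be assigned to either transcript. Of these, 5 lay inside Ints2, 0.407 to 2.26 kb from its 3' end, and 10 inside Med13, 0.240 to 12.6 kb from its 3' end, both on the opposite strand. In Ints2 the pileups were 40, 39, 40, 52 and 30 and the folds 2.11, 2.14, 1.90, 2.38 and 2.15, along rising coordinates. In Med13 the pileups were 48, 39, 36, 37, 31, 32, 20, 18, 17 and 18 and the folds 2.07, 1.92, 2.33, 2.63, 2.33, 2.28, 2.85, 4.19, 3.97 and 2.85. Input levels over the 15 ran from 3.54 to 22.6, and the larger folds lay where pileup and input were lower. Brip1 itself, the helicase of the Fanconi pathway, had no peak.

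**Figure D2:**
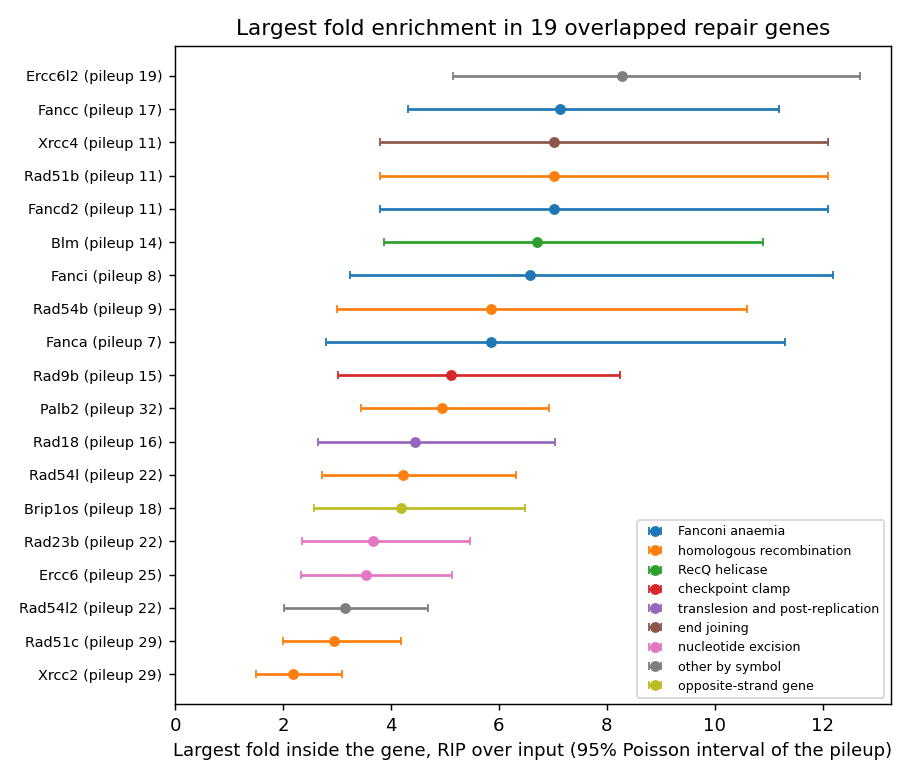
Largest fold enrichment of RIP over input inside each of 19 overlapped genes, on a linear axis that starts at 0, with the pileup in brackets and bars for the 95% Poisson interval of the pileup. The points run from 8.28 in Ercc6l2 to 2.18 in Xrcc2, and the intervals of neighbours overlap throughout.

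Ordered by largest fold, Ercc6l2 (8.28) was followed by Fancc (7.14), then Xrcc4, Rad51b and Fancd2 (7.03 each), Blm (6.70), Fanci (6.58), Rad54b (5.86), Fanca (5.85), Rad9b (5.12) and Palb2 (4.95). Rad18 (4.44), Rad54l (4.23), Brip1os (4.19), Rad23b (3.67), Ercc6 (3.53), Rad54l2 (3.14), Rad51c (2.94) and Xrcc2 (2.18) came after. The intervals of neighbours in this order overlap, while that of Ercc6l2 (5.15 to 12.7) lies above those of Ercc6 (2.33 to 5.14), Rad54l2, Rad51c and Xrcc2. They leave out the counting error of the input, which is 2 tags at the Ercc6l2 peak. Each largest fold is also picked from the peaks of its gene. The median of the largest folds was 5.04 over the 20 overlapped genes, at a median pileup of 17.5, and 4.38 over all 6158 overlapped genes, at a median pileup of 20. Counting only peaks with 20 or more RIP tags, 14 of the 20 genes kept one, and Ercc6l2, Fancc, Rad51b, Blm, Fanci and Fanca had none. Rad54b then led with 5.48, at a pileup of 20 in a peak shared with Fsbp. Among unshared peaks of this depth Palb2 led with 4.95. The share of all 6158 overlapped genes that keep a peak of this depth was not calculated. So it cannot be told whether the loss among the repair genes is the usual one.

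Of the 20 genes, 15 had a peak that overlapped no other gene (84.5% of all overlapped genes did), and 61 of their 86 peaks were of this kind (83.4% over the whole list). The opposite-strand gene Brip1os holds 15 of the 25 shared peaks, and without it 71 peaks remain, 61 of them unshared. Fanca, Rad54l, Rad54b and Brip1os were among those with shared peaks only. At least 5 peaks were found in 7 of the 20 (35.0%), against 27.7% of all overlapped genes. Both shares count shared peaks. Brip1os is among the 7 through its 15 shared peaks alone, and Rad9b through 5 peaks of which 3 are shared. The share over all overlapped genes by unshared peaks was not calculated.

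The peaks were next split by input level. That level is calculated from the fold, and a peak with few RIP tags passes the q cutoff only at a large fold, so a larger fold at lower input is built into this split and the values are a description. Of the 61 peaks that overlapped a member and no other gene, 12 (19.7%) had an input level of at most 1 tag, and their median fold was 5.86 at a median pileup of 8.5. The other 49 had a median fold of 3.53 at a median pileup of 23. Over all peaks in exactly 1 gene the corresponding medians of the fold were 5.85 and 3.03. Of all 86 overlapping peaks of the repair genes, 14 (16.3%) had at most 1 input tag, against 12.9% of the 23221 overlapping pairs of the whole list.

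**Figure D3:**
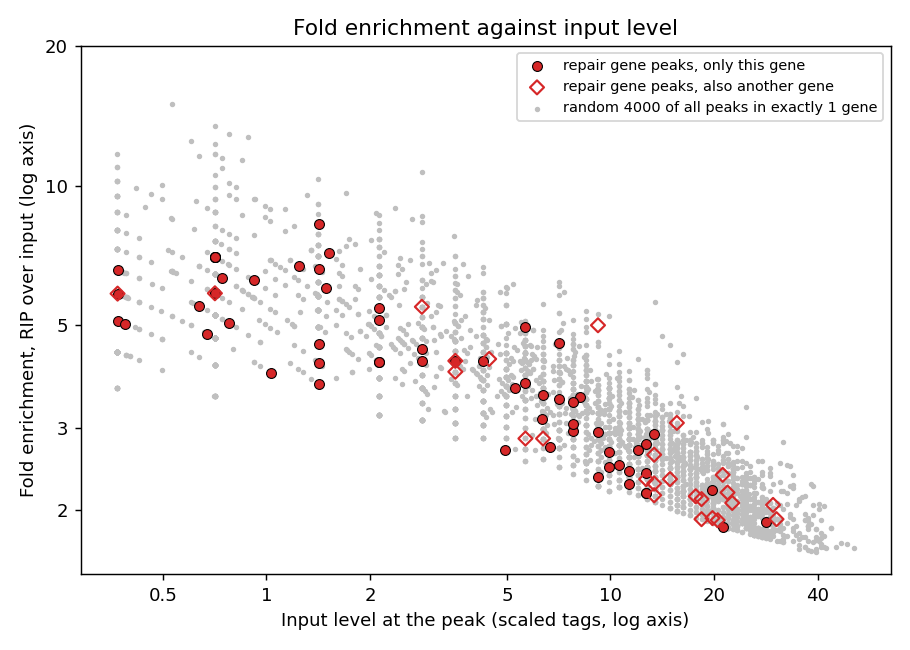
Fold enrichment against the input level at each peak, both on log axes, for the 86 peaks inside repair genes (red) and a random 4000 of all peaks in exactly 1 gene (grey). Red points lie within the grey cloud at every input level, and the largest folds occur at low input.

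Position along the body also moved with input. Of the 61 unshared peaks, 17 (27.9%, exact binomial 95% interval 17.1 to 40.8, counting each peak as independent although peaks of a gene are not) peaked within the final 10% of the body, against 46.6% of all 19371 peaks in exactly 1 gene. These 17 came from 8 genes and had a median fold of 2.91, a median pileup of 29 and a median input level of 9.20. The 44 elsewhere came from 11 genes and had a median fold of 4.87, a median pileup of 14 and a median input level of 1.45. Over the whole list the medians of the fold were 2.84 in the last 10% and 3.82 elsewhere. Rad51b, Ercc6l2 and Xrcc4 together supply 24 of the 44, with 8 each. Counting peaks above 1 input tag alone gave 34.7%, against 51.4% over the whole list.

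The 7 genes without a peak inside them were named by peaks of their neighbours. Of their 16 peaks, 15 lay inside another gene, and 12 of those lay within 2 kb of that gene's 3' end. Xrcc5, which encodes the end-joining protein Ku80, was paired with 3 peaks at the 3' end of Tmem169, 0.313 to 1.05 kb from it, the best enriched 8.33-fold with 20 RIP tags against 1.52. That is a larger fold than any peak inside the 20 overlapped genes. Rad52, a recombination mediator in yeast, was paired with 3 peaks of Wnk1 (folds 1.88 to 2.46, pileups 50 to 58), and the TFIIH helicase gene Ercc3 with 4 of Map3k2 (3.62 to 5.28, pileups 13 to 18). Fancg alone was paired with a peak in no gene, 6505 bp upstream, with a pileup of 8 and a fold of 3.52.

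The reference annotation holds 59 genes with these symbols, 58 of them protein-coding. A peak overlapped 19 of the 58 (32.8%), against 23.4% of 21900 protein-coding genes, and with peaks that overlap no other gene the shares were 25.9% and 21.1%. Repair genes are also longer, with a median of 38.6 kb against 17.1 kb, and longer genes held peaks more often. Below 20 kb, 1 of 17 repair genes (5.88%) was overlapped, against 10.9% of all protein-coding genes. From 20 to 100 kb it was 14 of 34 (41.2%), against 32.8%, and above 100 kb 4 of 7 (57.1%), against 55.0%. Within classes of length the share of repair genes thus stood below that of all genes in 1 class and above it in the other 2. The classes hold few repair genes, and no interval was calculated for them.

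The 32 genes of the family without any row in the table include the best known ones. Brca1 and Brca2, the break-sensing kinases Atm and Atr, the complex of Mre11a, Rad50 and Nbn, the mismatch sensor Msh6, the helicases Wrn and Brip1, and Fancb, Fance, Fancf, Fancl and Fancm were among them, as were the cohesin subunit Rad21 and the paralogues Rad51d and Xrcc3. Atm spans 99.7 kb and Wrn 151 kb, so some long genes of the family had no peak. Of the 32 reference bodies, 0 held a peak. How much of each transcript was in the input was not analysed here.

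**Figure D4:**
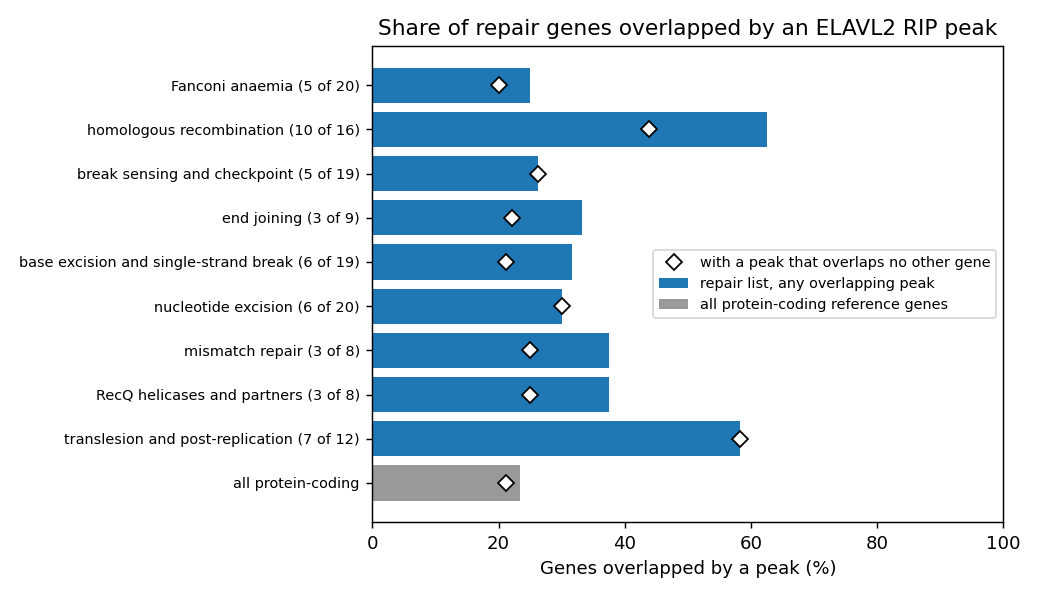
Share of the genes of each repair route that was overlapped by a peak, in percent of the genes listed (bars) and with a peak that overlaps no other gene (diamonds), above the same shares over 21900 protein-coding genes (grey bar). The bar for homologous recombination (62.5%) is the longest, that of translesion repair (58.3%) follows, and the grey bar stands at 23.4%.

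The wider pathways were counted over 131 genes of 10 lists, chosen with earlier results of these data known. Of these, 47 (35.9%) were overlapped, and 29 of 77 (37.7%) among those outside the symbol families, against 23.4% of all protein-coding genes. The listed genes are also longer, with medians of 28.7 kb over all lists and 24.3 kb outside the symbol families, against 17.1 kb for all protein-coding genes, and the part of length in these shares was not tested. The counts were 10 of 16 for homologous recombination, 7 of 12 for translesion and post-replication repair, 6 of 20 for nucleotide excision, 6 of 19 for base excision, 5 of 20 for the Fanconi list, 5 of 19 for break sensing and checkpoint, 3 of 9 for end joining, 3 of 8 for mismatch repair, 3 of 8 for the RecQ helicases and 0 of 1 for cohesin. With peaks that overlap no other gene, homologous recombination had 7 of 16 and translesion repair 7 of 12, against 21.1% of protein-coding genes. Rad54l2 stands in the homologous recombination list by its symbol only, and without it, an alternative chosen after seeing the data, the counts were 9 of 15 and, with unshared peaks, 6 of 15.

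Outside the symbol families, the largest -log10 q belonged to Bard1, the obligate partner of BRCA1, whose best peak (chromosome 1, 71027606 to 71027694) lay 0.166 kb from its 3' end with a pileup of 48 against 7.33, a fold of 5.89 and 17.5 in -log10 q. Bard1 had 7 peaks, all of them in no other gene, while Brca1 had none. Rbbp8, which starts the resection of broken ends, had 4, with 9.89 at 0.270 kb from its 3' end. Among the checkpoint genes, the ubiquitin ligase Rnf168 and the kinase Chek1 had 7 peaks each, with -log10 q values of 10.1 and 7.80. Ube2n, the enzyme that builds K63-linked ubiquitin chains, had 10 peaks and a value of 12.5, and the polymerase Rev1 had 2 and a value of 9.45. Unlike those of Bard1 and Rbbp8, the peaks with these values in Ube2n, Rnf168 and Rev1 lay away from the 3' end. They stood at 0.131%, 20.5% and 76.3% of the body from the 5' end, and that of Chek1 at 98.1%.

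Ddb2, the sensor of ultraviolet lesions, had 1 peak, with the largest fold among the genes of the lists, 9.95, from 16 RIP tags over an input level of 0.708, and with a -log10 q of 12.3. The TFIIH subunit Gtf2h1 reached 6.03. In end joining the nuclease gene Dclre1c had 10 peaks, all shared with another gene, and a value of 8.60, and the kinase gene Prkdc had 2 and 6.02. The glycosylase genes Mbd4, whose only peak was shared with another gene, and Smug1 reached 9.24 and 7.0, the exonuclease gene Exo1 and the MutL homologue Pms1 7.25 and 4.80, and the helicase gene Recql, again with a shared peak only, and the BLM partner Rmi1 3.34 and 2.08.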

How the data were processed

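The RIP and input RNA were amplified, made into stranded libraries and read as single 36-base reads, per the labels' protocols. The submitters' processing notes list MACS2 2.1.0.20140616 and TopHat2 2.0.8b beside CASAVA 1.8.2, FastQC 0.11.2 and build mm10. Per the file headers, 3 RIP lanes were pooled against 3 input lanes, 1 tag was kept per position and strand and extended to 50 bp, and the q cutoff was 0.05. That left 7.98% of 172711531 RIP tags and 9.26% of 210270620 input tags. Pileup and input are both bounded by keeping 1 tag per position and strand, which limits the fold where the input is high. The called peaks carry no strand.

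The pileup is a signal that the authors deposited per peak. The deposited fold is a ratio of that pileup to the scaled local input, each raised by 1. The authors also deposited the -log10 p and q. All of these values only describe and rank peaks.

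From the authors' deposited gene table, 42176 of 85730 rows were exact repeats and were dropped. Starts in that table are 1 below those of the peak list, which were used. The input level is (pileup + 1) / fold - 1, and a Poisson -log10 p recomputed from it matched the deposited one to within 5.62e-05. Reference genes were RefSeq's for GRCm38.p6, matched by symbol. Code was tested on simulated data. Tables were handled with pandas 2.3.3 and numpy 2.4.6 in Python 3.11.15, intervals computed with scipy 1.17.1 and plots drawn with matplotlib 3.10.9.

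The members and lists were chosen with earlier results of these data known. Overlapped members are named, except that some results are not reported here. Values of each peak were to be given for 10 genes: the top 8 by -log10 q, the top 5 by number of peaks and the top 5 by fold. They are also given for other overlapped genes with few peaks. The 2 genes per list with the largest -log10 q are named outside the families. Alternatives were stricter q, fold and pileup thresholds, other rules of overlap, reference bodies and a fold without the pseudocount.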

Additional observations from a re-analysis of the deposited data

How the results depend on the processing

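The 20 overlapped genes became 6 with peaks paired with exactly 1 gene and ranged from 14 to 27 under the other settings. The 86 peaks became 26 at a -log10 q of at least 5, 50 at a fold of at least 3, 49 at a pileup of at least 20 and 21 with peaks paired with exactly 1 gene. The matching counts over the whole list were not calculated. These drops therefore describe the settings and are not read as particular to repair genes. The median largest fold, 5.04, was 5.12 at a -log10 q of at least 3 and 6.03 at 5, 5.85 at a fold of at least 3, 3.33 at a pileup of at least 20, 5.12 with peaks in exactly 1 gene, 6.80 with peaks paired with exactly 1 gene, 5.12 with reference bodies, 4.76 with nearest genes added and 6.36 without the pseudocount. Leaving out the opposite-strand genes, an alternative chosen after seeing the data, gave 5.12. The median pileup at the best peak, 17.5, was 22 with the best peak taken by -log10 q, also chosen after seeing the data. Several thresholds act on the fold or the pileup itself, so these medians move by construction, and for the rest the cause was not tested. The share in the last 10% of the body stayed within its interval (25.6 to 34.7%), and the list count was 46 of 131 with reference bodies. No paired analysis was possible because each arm had 1 sample. Depth limits the folds at low input most: at 1 input tag a pileup of 11 has an interval of 3.80 to 12.1.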
